A study of Mus musculus with 8 samples.

Results

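Expression of 10 genes of the glutathione and thioredoxin defence was followed in ATCL7 cells, an immortalized line from an adrenocortical tumour of a male mouse. The genes Gclc, Gclm, Gss, Gsr, Chac1, Gpx4, Txnrd1, Srxn1, Hmox1 and Nfe2l2 were taken by name from the deposited annotation, and all 10 were among the 20719 named genes measured. The BIO samples had been treated for 24 h with 0.5 µM BIO, and the vehicle samples for the same time with 0.01% DMSO. BIO, 6-bromoindirubin-3'-oxime, is an inhibitor of glycogen synthase kinase 3 (GSK3), and indirubins also bind the aryl hydrocarbon receptor. Both groups shared a treatment medium with insulin, transferrin, selenium and 0.025% each of fetal bovine and horse serum, and each held 4 samples of 250000 cells. The titles join them into 4 numbered pairs of 1 BIO and 1 vehicle sample. A Mouse Gene ST array was run per sample, and the values are log2 values made by RMA, so that a difference of 1 is a doubling of the estimated signal.

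Glutathione, a small thiol peptide, is built in successive steps. Glutamate-cysteine ligase, made of the catalytic subunit Gclc and the modifier subunit Gclm, joins glutamate to cysteine, and glutathione synthetase (Gss) adds glycine. Gsr reduces oxidised glutathione with NADPH, Gpx4 uses glutathione to remove lipid hydroperoxides, and Chac1 cleaves glutathione in the cytosol. In the parallel thiol system Txnrd1 reduces thioredoxin in the cytosol, and Srxn1 repairs overoxidised peroxiredoxins. Hmox1 breaks down haem. Nfe2l2 encodes NRF2, the transcription factor that drives many of these genes under oxidative or electrophile stress, and KEAP1 and phosphorylation by GSK3 both mark the NRF2 protein for degradation. Steroid-making cells of the adrenal cortex produce reactive oxygen in their mitochondria, and inherited loss of the mitochondrial thioredoxin reductase is known to impair glucocorticoid output in humans.

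With BIO, 4 of the 10 genes rose, 1 fell and 5 did not pass the test. Chac1 rose most, 2.97-fold, followed by Srxn1 at 1.499-fold, Gclc at 1.43-fold and Hmox1 at 1.19-fold. Gss, the last step of glutathione synthesis, was 1.65-fold lower. Gclm, Gsr, Gpx4, Txnrd1 and Nfe2l2 had differences between −0.08 and 0.10 log2. The test was limma with the pair as a block, with p-values adjusted by the Benjamini-Hochberg method over all 20719 genes and a threshold of 0.05. Of all genes, 32.7% passed it, 17% higher in BIO and 15.6% lower. The median log2 change was 0.07 over the 10 genes and −0.01 over all genes tested.

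The arrays were alike in scale. Their medians lay between 5.70 and 5.73 log2, and precision is limited by there being 4 arrays in a group. Arrays correlated at 0.9948 or more within groups. Whether each pair came from its own culture is not in the labels, and the spread behind the p-values may therefore be technical. In a bulk RNA sample, fewer cells that express a gene and less RNA of it per cell cannot be told apart. Of 8 markers of adrenocortical steroidogenic cells, 5 lay above the median of all genes on all 8 arrays (Nr5a1, Star, Cyp11a1, Scarb1 and Fdx1), while Mc2r, Hsd3b1 and Nr0b1 did not on every array. All 8 fell with BIO, and 15.6% of all genes fell. The summed log2 level of the 8 was 60.7 to 63.5 on the BIO arrays and 67.9 to 71.7 on the vehicle arrays. Their part in the results for the defence genes was not tested. Markers of chromaffin cells (0 of 6), endothelium (0 of 4) and fibroblasts (0 of 4) did not lie above that median on all arrays, and of 5 markers of macrophages and blood cells Cd68 alone did. Of these other markers, 1 of macrophages and blood cells and 1 of fibroblasts fell with BIO, and 0 rose.

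Promoter sequences are shown for 4 of the genes because they cover the range of the responses. Chac1 had the largest rise, Srxn1 is a classical NRF2 target that rose, Gclm is a classical NRF2 target that did not pass, and Gss is the gene that fell. The sequences are from RefSeq, build GRCm38.p6, 5′ to 3′ on the strand of the gene, and end before the first transcribed base. RefSeq entries matched 7 of the 10 genes, all but Gclc, Gsr and Hmox1. Capitals mark letters that match the core of the antioxidant response element, the site bound by NRF2 with small MAF proteins (TGACNNNGC, or TGAGNNNGC), or the core of the amino acid response element, the site bound by ATF4 with C/EBP proteins (TGATGNAA, or TGACGCAA), on either strand.
Chac1, chr2:119350992-119351241, + strand: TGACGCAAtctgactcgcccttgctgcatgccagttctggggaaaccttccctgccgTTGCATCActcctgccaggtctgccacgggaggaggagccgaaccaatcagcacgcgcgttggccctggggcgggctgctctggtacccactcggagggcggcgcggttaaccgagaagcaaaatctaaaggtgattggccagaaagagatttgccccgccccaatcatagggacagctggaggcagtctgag
Srxn1, chr2:152105274-152105523, + strand: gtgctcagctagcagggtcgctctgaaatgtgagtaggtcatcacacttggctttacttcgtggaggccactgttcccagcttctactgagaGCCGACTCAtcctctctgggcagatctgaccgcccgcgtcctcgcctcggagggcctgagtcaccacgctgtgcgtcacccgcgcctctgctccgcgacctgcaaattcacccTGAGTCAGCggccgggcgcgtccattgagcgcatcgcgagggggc
Gclm, chr3:122245307-122245486, + strand: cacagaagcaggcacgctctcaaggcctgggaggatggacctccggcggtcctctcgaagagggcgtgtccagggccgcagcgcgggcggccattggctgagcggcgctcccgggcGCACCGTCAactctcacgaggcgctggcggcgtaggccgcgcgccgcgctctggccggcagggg
Gss, chr2:155592811-155593060, - strand: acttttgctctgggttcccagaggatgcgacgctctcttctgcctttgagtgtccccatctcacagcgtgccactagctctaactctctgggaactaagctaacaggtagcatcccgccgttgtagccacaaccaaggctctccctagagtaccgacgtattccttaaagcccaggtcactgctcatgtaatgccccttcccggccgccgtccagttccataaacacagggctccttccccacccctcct

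Within the 250 bases before a RefSeq start, Chac1 held TGATGNAA once, on the opposite strand 193 to 186 bases before the start, where it reads TTGCATCA, and TGACGCAA once, 250 to 243 bases before it. Of all 32851 promoter windows, 3.45% held TGATGNAA and 0.438% held TGACGCAA. The Srxn1 window held no TGACNNNGC and 2 matches to TGAGNNNGC, which 14.4% of all windows hold. TGACNNNGC, found in 10.2% of all windows, was present for 3 genes, Gclm, Nfe2l2 and 1 of the 3 windows of Txnrd1, none of which passed the test. Gclc and Hmox1, which rose, had no window and were not searched, so the motif cannot be set against the calls. The Gss window held none of these letters. No window of the 7 genes held TNGCGTG, the core of the xenobiotic response element of the aryl hydrocarbon receptor (4.1% of all windows), or CTTTGAT, the core of the TCF/LEF site of the Wnt pathway (3.21%). None of the matches overlapped another. The forms TGAGNNNGC and TGACGCAA were added after these sequences had been read.

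Nfe2l2, which encodes NRF2, did not pass. Its values in pairs 1 to 4 were 11.002, 11.05, 11.04 and 11.13 log2 on the BIO arrays, against 10.85, 10.82, 11.05 and 11.10 log2 on the vehicle arrays. The groups overlapped, and the BIO value lay clearly above its partner in pairs 1 and 2 and close to it in pairs 3 and 4. The log2 differences of the pairs were 0.16, 0.22, −0.01 and 0.03, and their mean of 0.10 ± 0.05 (SE) had a 95% interval of −0.02 to 0.22 and an adjusted p of 0.199. The vehicle arrays of pairs 1 and 2 were both below those of pairs 3 and 4 for this gene.

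**Figure D1:**
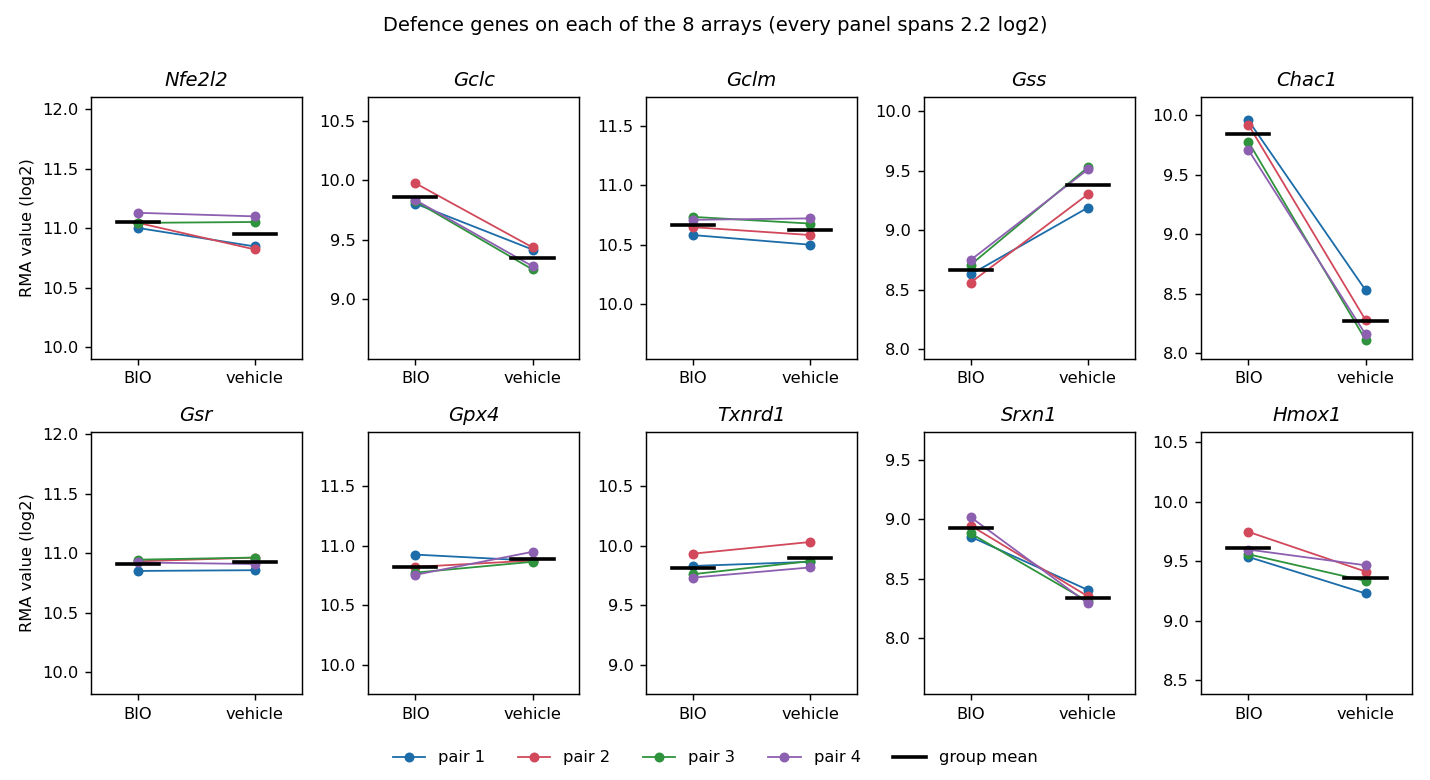
Log2 RMA values of the 10 genes on the 4 BIO and 4 vehicle arrays, with lines that join the samples of a pair, black bars for the group means and the same height of axis in every panel. For Gclc, Gss, Chac1, Srxn1 and Hmox1 the groups do not overlap, and Gss is the gene of these 5 whose BIO arrays are lower.

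The steps of glutathione synthesis moved apart. Gclc, the catalytic subunit of the rate-limiting ligase, had 9.80, 9.98, 9.82 and 9.83 log2 on the BIO arrays of pairs 1 to 4, against 9.42, 9.44, 9.25 and 9.28 log2 on the vehicle arrays. Every BIO array was above every vehicle array, with the smallest step in pair 1. The change was 0.51 ± 0.05 log2 (SE, n = 4 pairs, limma adjusted p = 0.000115).

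Gclm, the modifier subunit that raises the affinity of the ligase for glutamate, had 10.58, 10.65, 10.73 and 10.71 log2 on the BIO arrays, against 10.50, 10.58, 10.68 and 10.72 log2 on the vehicle arrays. The groups overlapped almost completely, and both groups were lower in pairs 1 and 2 than in pairs 3 and 4. The difference was 0.05 ± 0.04 log2 (SE), with a 95% interval of −0.05 to 0.15 and an adjusted p of 0.467, so that a rise of the size seen for Gclc lies outside the interval.

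Gss, which completes the peptide, had 8.63, 8.56, 8.71 and 8.75 log2 on the BIO arrays, against 9.19, 9.30, 9.53 and 9.51 log2 on the vehicle arrays. Every BIO array was below every vehicle array. The change was −0.72 ± 0.05 log2 (SE, n = 4 pairs, limma adjusted p = 3.57e-05), and it was smallest in pair 1, at −0.56 log2.

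The differences between these changes were tested within pairs, in contrasts chosen with earlier results of these data known. The change of Gclc exceeded that of Gclm by 0.47 ± 0.11 log2 (SD, n = 4 pairs) and that of Gss by 1.24 ± 0.20 log2, each in 4 of 4 pairs. An exact two-sided sign-flip test gave p = 0.125 for both, also after Benjamini-Hochberg adjustment over the 3 differences tested, and 4 pairs allow no smaller p. The lowest difference in any pair was 0.31 log2 against Gclm and 0.95 log2 against Gss.

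Chac1, the γ-glutamyl cyclotransferase that degrades glutathione, showed the largest change of the 10 genes. It had 9.96, 9.92, 9.78 and 9.71 log2 on the BIO arrays, against 8.53, 8.28, 8.11 and 8.16 log2 on the vehicle arrays. The groups lay more than 1 log2 apart, and in each group the values were higher in pairs 1 and 2. The log2 changes of the pairs ran from 1.43 to 1.67, with a mean of 1.57 ± 0.05 (SE, limma adjusted p = 1.2e-06).

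Chac1 is a known target of ATF4, the transcription factor of the amino acid and endoplasmic reticulum stress response. In a list of 12 genes, Atf4 itself, Chac1 and other ATF4 targets, 11 rose and 1 fell, and their median change was 0.94 log2. Without Chac1, 10 genes of the list rose and 1 fell, with a median of 0.75 log2, and 17% of all genes rose. The list was written with earlier results of these data known, and the part of ATF4 was not tested. Trib3, a stress-induced pseudokinase, rose 4.74-fold and Ddit3, the stress factor CHOP, 3.01-fold. Atf4, counted among the risers, averaged 9.02 ± 0.13 log2 in BIO and 8.42 ± 0.03 log2 in vehicle (SD, n = 4 each). It rose 1.51-fold (limma adjusted p = 0.000148). The faller of the list was Ddit4, an inhibitor of mTOR signalling, at −0.19 log2, named after its value was seen, and its call was lost in 7 of 15 alternative settings.

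Gsr and Gpx4, the reductase and the lipid peroxidase, did not pass. Gsr had 10.85, 10.93, 10.95 and 10.92 log2 on the BIO arrays, against 10.86, 10.96, 10.96 and 10.91 log2 on the vehicle arrays. The partners of each pair were nearly level. The difference was −0.01 ± 0.04 log2 (SE, 95% interval −0.11 to 0.09, adjusted p = 0.884).

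Gpx4, the selenoenzyme that guards membranes against lipid peroxidation and ferroptosis, had 10.93, 10.82, 10.77 and 10.75 log2 on the BIO arrays, against 10.87, 10.87, 10.86 and 10.95 log2 on the vehicle arrays. The BIO array was higher in pair 1 and lower in the other 3. The difference was −0.07 ± 0.05 log2 (SE, 95% interval −0.19 to 0.05, adjusted p = 0.352). A second, dimmer probe set of Gpx4 differed by −0.07 ± 0.06 log2. Gpx4 was the only one of the 10 genes with more than 1 probe set.

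**Figure D2:**
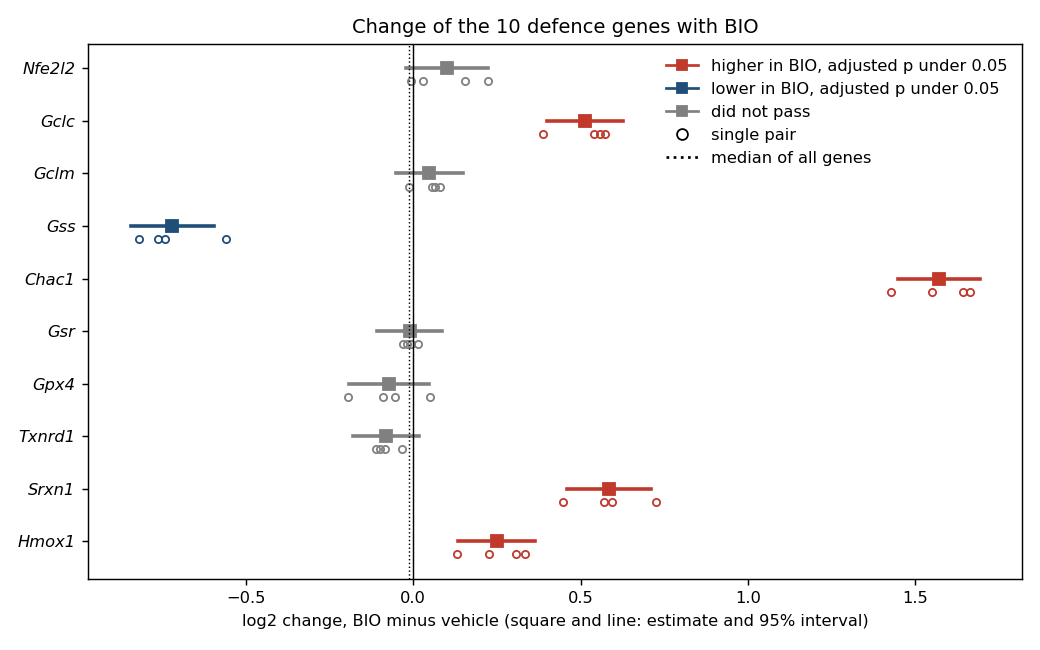
Log2 change, BIO minus vehicle, of each of the 10 genes, with squares for the limma estimate, lines for its 95% interval and open circles for the 4 pairs. Chac1 lies farthest to the right at 1.57, Gss lies to the left at −0.72, and the intervals of Nfe2l2, Gclm, Gsr, Gpx4 and Txnrd1 include 0.

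The thioredoxin genes also split. Srxn1, the sulfiredoxin, had 8.85, 8.95, 8.88 and 9.02 log2 on the BIO arrays, against 8.41, 8.35, 8.31 and 8.30 log2 on the vehicle arrays. The groups were far apart relative to their spread. The change was 0.58 ± 0.05 log2 (SE, n = 4 pairs, limma adjusted p = 9.89e-05).

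Txnrd1, the cytosolic thioredoxin reductase, had 9.83, 9.93, 9.76 and 9.73 log2 on the BIO arrays, against 9.86, 10.03, 9.87 and 9.82 log2 on the vehicle arrays. The BIO array was the lower of the pair in 4 of 4 pairs, but the steps were small and the groups overlapped. The difference was −0.08 ± 0.04 log2 (SE, 95% interval −0.18 to 0.02, adjusted p = 0.195). The change of Srxn1 exceeded that of Txnrd1 by 0.67 ± 0.14 log2 (SD, n = 4 pairs), in 4 of 4 pairs, with the smallest p an exact sign-flip test of 4 pairs can give (p = 0.125, two-sided).

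Hmox1, the inducible haem oxygenase, had 9.54, 9.75, 9.56 and 9.60 log2 on the BIO arrays, against 9.23, 9.41, 9.33 and 9.47 log2 on the vehicle arrays. Every BIO array was above every vehicle array, although the highest vehicle array came close to the lowest BIO array. The change of 0.25 ± 0.05 log2 (SE, limma adjusted p = 0.00554) was larger in pairs 1 and 2 (0.31 and 0.33) than in pairs 3 and 4 (0.22 and 0.13). With pairs 3 and 4 alone it was 0.18 log2 (adjusted p = 0.0893), and by the authors' deposited paired test, adjusted over the same genes, it missed the threshold as well (adjusted p = 0.0565).

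In 5 of the 10 genes the BIO and vehicle arrays did not overlap, 4 higher and 1 lower in BIO. Of all genes, 27% had groups that did not overlap, 14.1% higher and 12.9% lower in BIO.

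Slc7a11, Slc3a2 and Cth, which supply cysteine to the ligase, rose. In the list of glutathione synthesis, cystine supply and breakdown, 7 of 20 measured genes rose, 1 fell and 12 did not pass, with a median of 0.03 log2. Without the 10 genes described above, 5 of 16 rose and the other 11 did not pass. For comparison, 17% of all genes rose and 15.6% fell. Slc7a11, the cystine carrier of the cell membrane, averaged 9.39 ± 0.27 log2 in BIO and 6.86 ± 0.18 log2 in vehicle (SD, n = 4 each). It rose by 2.53 ± 0.07 log2 (SE), and its partner chain Slc3a2 rose by 0.51 ± 0.05 log2.

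Cth, which makes cysteine from cystathionine, averaged 10.83 ± 0.37 log2 in BIO and 8.91 ± 0.10 log2 in vehicle (SD, n = 4 each), and it rose 3.79-fold (limma adjusted p = 7.86e-06). Cbs, the enzyme before it in the same route, differed by −0.04 ± 0.05 log2 (SE, adjusted p = 0.606). Chac2, a second cytosolic enzyme that degrades glutathione, rose 1.39-fold (adjusted p = 0.000106). Ggct, another gene of the glutathione list, differed by −0.04 ± 0.06 log2, and Ggt1, which cleaves glutathione outside the cell, by 0.01 ± 0.06 log2. Cbs, Ggct and Ggt1 were named after their values were seen.

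**Figure D3:**
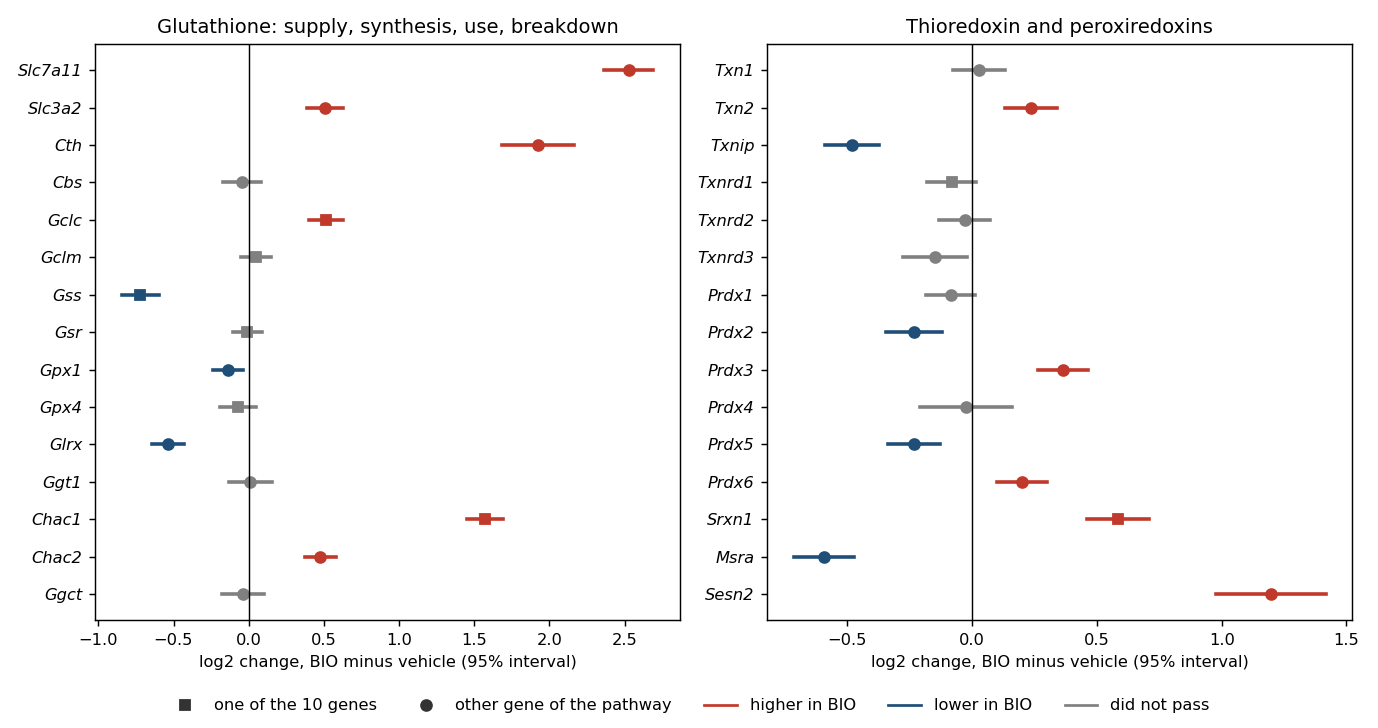
Log2 change, BIO minus vehicle, with 95% intervals for genes of glutathione supply, synthesis, use and breakdown (left) and of the thioredoxin and peroxiredoxin system (right), with squares for the 10 genes and circles for others. Slc7a11, Cth and Chac1 stand far to the right on the left panel, and Gss and Glrx to the left.

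In the list of glutathione reductase, peroxidases and glutaredoxins, 2 of 13 measured genes fell and 11 did not pass, and 32.7% of all genes passed. Gpx2, Gpx3, Gpx5 and Gpx6, among the 11, were dim and were named after their values were seen. Their group means of 3.65 to 5.11 log2 lay below the array medians, and no detection call was used. Glrx, a cytosolic glutaredoxin that removes glutathione from protein thiols, averaged 7.58 ± 0.17 log2 in BIO and 8.12 ± 0.18 log2 in vehicle (SD, n = 4 each) and fell (−0.54 ± 0.05, SE, adjusted p = 6.06e-05). Gpx1, the general cytosolic peroxidase, fell by a small amount (−0.14 ± 0.04, adjusted p = 0.0437), and the call was lost in 9 of 15 alternative settings.

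Glutathione transferases, which attach glutathione to electrophiles, changed in both directions. Of 24 measured genes 11 rose, 4 fell and 9 did not pass. The list median was 0.06 log2, and 17% of all genes rose and 15.6% fell. Gstz1, which also acts in tyrosine breakdown, rose 1.59-fold (0.67 ± 0.06 log2, SE), and Gsto2 rose 1.47-fold from a low signal (4.98 ± 0.09 log2 in vehicle, SD, n = 4). Gstm7 was 2.00-fold lower (limma adjusted p = 2.95e-05) and Gstt1 1.77-fold lower (−0.83 ± 0.10 log2, SE), and Gstt1 missed the threshold by the authors' deposited paired test (adjusted p = 0.0554). The falling count was 2 by that test, without the pair block, without replicate 3, with pairs 1 and 2 only and with the dimmer 50% of genes left out. The rising count was 6 without the pair block, 7 with pairs 3 and 4 only or with the dimmer 50% of genes left out, and 3 by the authors' deposited paired test. Close paralogs such as the Gstm genes may share probes, which was not tested.

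The wider thioredoxin and peroxiredoxin list changed in both directions. Of 23 measured genes 6 rose, 7 fell and 10 did not pass. The list median was −0.02 log2, and 17% of all genes rose and 15.6% fell. Sesn2, a stress-induced sestrin that is also an ATF4 target, rose 2.29-fold (1.20 ± 0.10 log2, SE, adjusted p = 4.88e-05). Msra, which repairs oxidised methionine, was 1.51-fold lower, Txnip, the inhibitor of thioredoxin, 1.396-fold lower, and Nxn, a thioredoxin-like regulator, 1.38-fold lower. Nxn missed the threshold by the authors' deposited paired test (adjusted p = 0.0591). Txn1, cytosolic thioredoxin, differed by 0.03 ± 0.04 log2 (adjusted p = 0.712). The falling count was 4 with pairs 1 and 2 only and 3 by the authors' deposited paired test.

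The peroxiredoxins, a family of peroxidases, changed in both directions or did not pass. Prdx1, the main cytosolic form, differed by −0.09 ± 0.04 log2 (SE, adjusted p = 0.171). It passed with the probe set of highest variance (−0.16, adjusted p = 0.0225) and when the prior variance was robust and followed intensity (adjusted p = 0.038). Named after their values were seen, Prdx3 of mitochondria (0.36 ± 0.04 log2) and Prdx6 (0.20 ± 0.04) rose, Prdx2 (−0.23 ± 0.05) and Prdx5 (−0.23 ± 0.05) fell, and Prdx4 differed by −0.02 ± 0.08 log2 and did not pass.

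Among NRF2 and its regulators, 3 of 18 measured genes rose, 7 fell and 8 did not pass. The list median was −0.10 log2, and 17% of all genes rose and 15.6% fell. The small MAF proteins are the binding partners of NRF2 and also of its competitor BACH1. Maff averaged 5.80 ± 0.14 log2 in BIO and 6.91 ± 0.12 log2 in vehicle (SD, n = 4 each) and was 2.15-fold lower (adjusted p = 8.95e-06), and Mafk was 1.403-fold lower. Mafg, another small MAF gene named after its values were seen, differed by 0.12 ± 0.05 log2 (SE, limma adjusted p = 0.103) and did not pass. Bach1, which represses Hmox1 and other NRF2 targets, was 1.44-fold lower, at −0.52 ± 0.06 log2 (SE, adjusted p = 0.000272). Keap1, the adaptor that directs NRF2 to degradation, differed by −0.11 ± 0.05 log2 (adjusted p = 0.101). It passed with cyclic loess normalization (−0.16, adjusted p = 0.0289) and with the dimmer 50% of genes left out (adjusted p = 0.0442). The falling count of this list was 4 without the pair block or with pairs 3 and 4 only, and 3 with pairs 1 and 2 only or by the authors' deposited paired test.

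Other NRF2 target genes changed in both directions. Of 27 measured genes 10 rose, 5 fell and 12 did not pass, with a median of 0.02 log2. Of all genes, 17% rose and 15.6% fell. Slc7a11, described above, had the largest rise of the list and is also in the list of ATF4 targets. Nqo1, the quinone reductase that is also a target of the aryl hydrocarbon receptor, averaged 6.39 ± 0.13 log2 in BIO and 5.53 ± 0.05 log2 in vehicle (SD, n = 4 each) and rose 1.81-fold (adjusted p = 4.37e-05). Osgin1, a target that restrains growth, was 2.30-fold lower (−1.20 ± 0.04 log2, SE, adjusted p = 1.5e-06), and Idh1, a cytosolic source of NADPH, was 1.48-fold lower. The rising count was 6 without replicate 3, with pairs 1 and 2 only, with pairs 3 and 4 only and by the authors' deposited paired test.

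The haem and iron list held Hmox1 and 13 other genes. Of the 14 measured, 7 rose, 2 fell and 5 did not pass. The list median was 0.12 log2, and 17% of all genes rose and 15.6% fell. Slc48a1, which moves haem out of endosomes and lysosomes, rose 1.29-fold, Slc40a1, the iron exporter ferroportin, rose 1.39-fold at a low signal (4.49 ± 0.27 log2 in vehicle, SD, n = 4), and Fech, which inserts iron into the haem ring, rose 1.22-fold. Tfrc, the transferrin receptor, was 1.34-fold lower (−0.42 ± 0.07 log2, SE, adjusted p = 0.00222). Slc40a1 had an adjusted p of 0.0583 when pairs were ignored, and Tfrc missed the threshold by the authors' deposited paired test (adjusted p = 0.0775), which called 4 genes of this list higher and 0 lower. Fech just missed the threshold in that test (adjusted p = 0.05 after rounding). With pairs 1 and 2 only, 4 genes rose and 1 fell, and 1 fell as well with pairs 3 and 4 only and without replicate 2, 3 or 4.

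**Figure D4:**
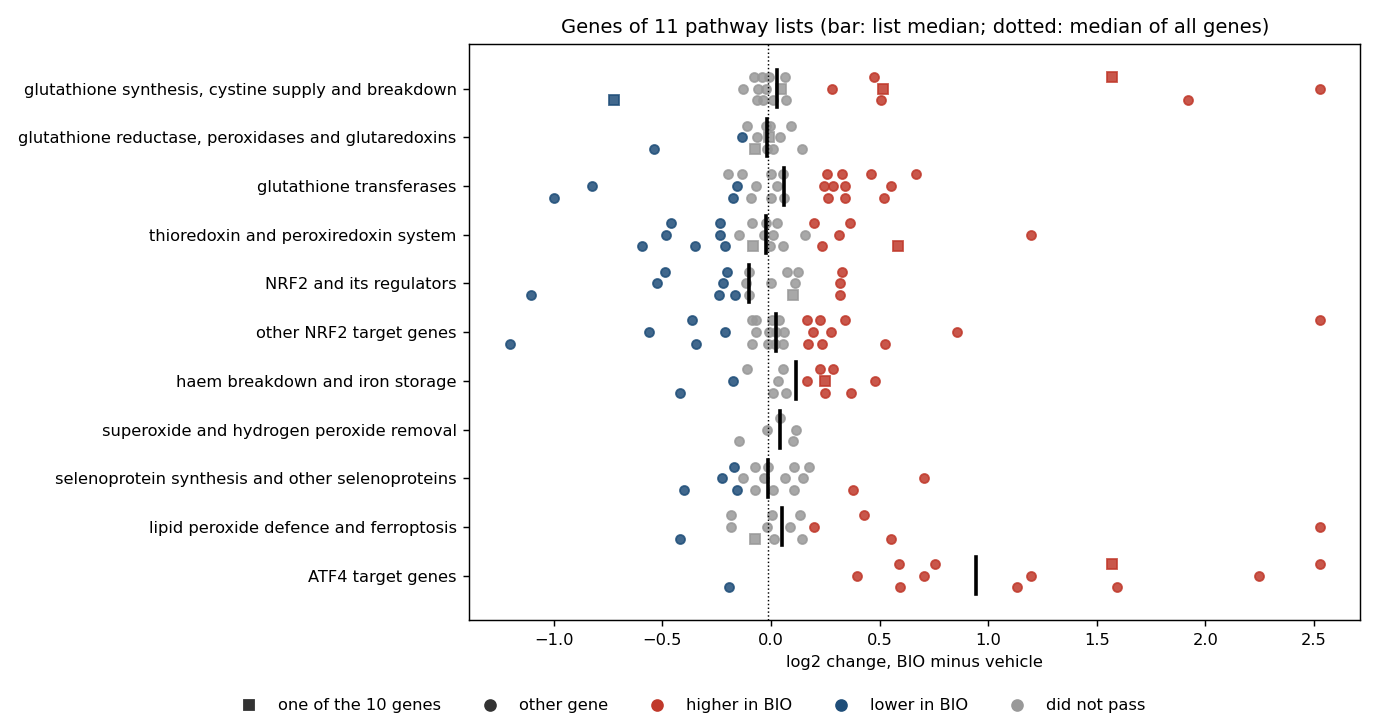
Log2 change, BIO minus vehicle, of every measured gene in 11 pathway lists, with squares for the 10 genes, circles for other genes, colours for the call, bars for list medians and a dotted line for the median of all genes. The medians of the lists lie between −0.10 and 0.12 except that of ATF4 and its targets at 0.94, and most lists hold genes on both sides.

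The deposited table also holds another experiment of the same authors, which its header describes as 3 Wnt against 4 SF1 samples without further detail here. Of the 10 genes, 3 had a p under 0.05 there in the authors' deposited table, unadjusted, against 12.9% of all genes. In the authors' deposited table Gss was 1.82-fold higher in WNT (the authors' p = 0.037) and Gclm 1.34-fold higher (the authors' p = 0.0128), and 6.77% of all genes were higher at that threshold. Chac1 had a WNT over SF1 ratio of 0.583 in the authors' deposited table (the authors' p = 0.0325), and 6.12% of all genes were lower. After Benjamini-Hochberg adjustment of the deposited p-values over the 20719 genes, 0 genes passed, against 2671 at an unadjusted p under 0.05.

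Gss and Chac1 thus ran in opposite directions in the 2 deposited comparisons. In the authors' deposited table the ratio of Gss was 0.607 for BIO over vehicle and 1.82 for WNT over SF1, and that of Chac1 was 2.97 for BIO over vehicle and 0.583 for WNT over SF1. The difference between the experiments was not tested, because the second one is given only as ratios and p-values. Srxn1 had ratios of 1.499 for BIO over vehicle and 1.80 for WNT over SF1 in the authors' deposited table, the second with p = 0.125. For Gclc the ratios there were 1.43 and 0.798 (the authors' p = 0.498 for WNT over SF1). For Hmox1 they were 1.19 and 1.13 (the authors' p = 0.819 for WNT over SF1).

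**Figure D5:**
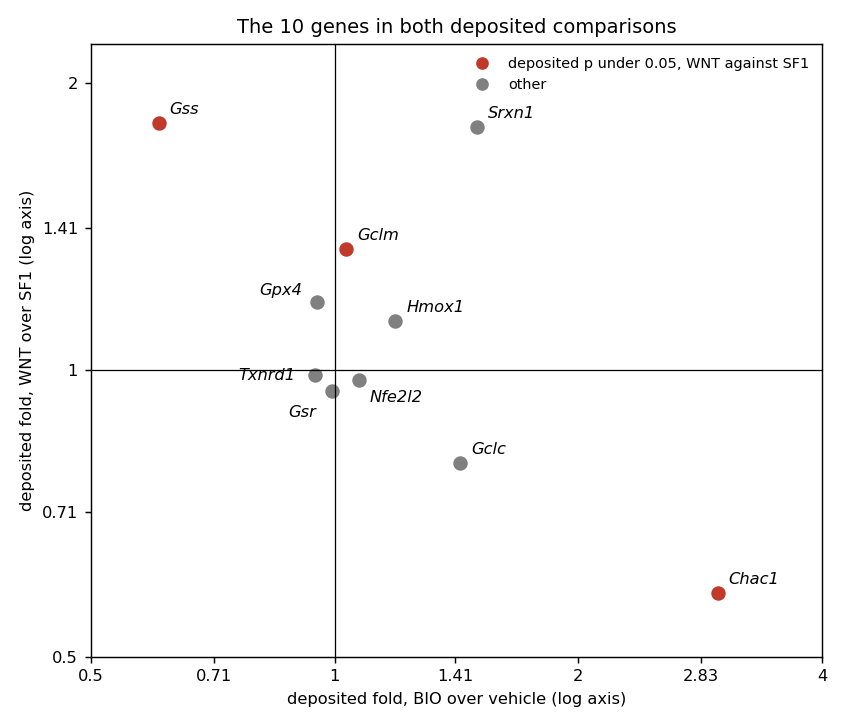
The authors' deposited fold ratios of the 10 genes, BIO over vehicle on the horizontal axis and WNT over SF1 on the vertical axis, both log axes, with coloured points where the WNT against SF1 p was under 0.05. Gss is at the upper left and Chac1 at the lower right.

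For each gene, the other gene with the most similar log2 values over the 8 arrays was found by Pearson's r. For Chac1 it was Fbxl2 (r = 0.999), for Srxn1 Onecut2 (r = 0.998), for Gclc Ears2, which encodes the mitochondrial glutamyl-tRNA synthetase (r = 0.996), for Gss Hk1, which encodes a hexokinase (r = 0.995), and for Hmox1 Zfp317 (r = 0.983). For the 5 genes that did not pass, the highest r lay between 0.955 and 0.980. The 8 points fall into 2 treatment groups and 4 pairs, and each value is the highest of 20718, so that these values only describe the 8 arrays.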

How the data were processed

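The authors deposited log2 values made by RMA from perfect-match probes with the oligo package, per the file headers and the submitters' processing notes. No source used here gives the version or the genome build of the annotation. RMA compresses low signals, so changes of dim genes are understated, and no detection call was used. The deposited table also gives the authors' unadjusted p-values and average fold ratios, for BIO over vehicle from a paired test and for another experiment.

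Symbols were updated through gene identifiers with the RefSeq table of GRCm38.p6 (20480 of 20719 genes matched), and each gene kept its brightest probe set, by the mean over 8 arrays. BIO minus vehicle was tested with limma 3.58.1 in R 4.3.3, two-sided, with the pair as a block. The pairing comes from the titles. Deviations of paired arrays from their group means correlated at 0.446, 0.578, 0.385 and 0.617 across genes. The deviations of arrays of pairs 1 and 2 correlated at −0.710 to −0.214 with those of pairs 3 and 4. Deviations within a group cancel out, so negative values arise in part by construction. The procedure was tested on simulated data.

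The 10 genes, the 11 pathway lists, the alternatives and the differences tested between genes were chosen with earlier results of these data known. Beyond the 10 genes, the text names from each list the called genes of largest change, at most 4, and 8 fixed genes (Keap1, Bach1, Nqo1, Txn1, Txnip, Slc7a11, Atf4 and Prdx1). Of 175 listed genes 174 were measured, and 1 gene that the rule names is not reported here. The alternatives left out each pair, or pairs 1 and 2 or 3 and 4 together, dropped the block, and changed the normalization, the filter, the probe set, the variance model or the test.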

Additional observations from a re-analysis of the deposited data

Results flagged for a closer look

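In a group of 4 arrays, 1 array was called apart where its gap to the nearest other array exceeded Dixon's critical share of the range of the group. This held in 5 of 94 groups of the named genes, and chance alone gives about 1 in 20. Of the 10 defence genes it held once. The vehicle array of pair 4 had 10.95 log2 for Gpx4, above 10.86 to 10.87 on the other 3. The vehicle array of pair 4 had 8.76 log2 for Cth, below 8.95 to 8.99 on the others, and that of pair 3 had 11.51 log2 for Slc3a2, below 11.66 to 11.68. The BIO array of pair 4 had 7.83 log2 for Glrx, above 7.48 to 7.52 on the others. The vehicle array of pair 2 had 9.76 log2 for Nxn, above 9.51 to 9.52.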

How the results depend on the processing

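Over 15 alternatives the 10 defence genes kept their direction and their side of the threshold in 148 of 150 results. These include the 5 genes that did not pass, which counted as kept where they again did not pass, in the same direction. The exceptions were both of Hmox1, at 0.25 log2 by the authors' deposited paired test (adjusted p = 0.0565) and at 0.18 log2 with pairs 3 and 4 only (adjusted p = 0.0893); the cause was not tested. Without the pair block 5023 genes were called, 5005 of them among the 6767 with the block, and the calls of the 10 genes were as with the block. Leaving out each pair in turn gave 5143 to 5948 genes. The authors' deposited paired test called 3947 genes, 2057 higher and 1890 lower, and pairs 1 and 2 only called 4483, of which 2090 were lower; fewer samples enter the second. Over all lists 53 of 174 measured genes rose and 33 fell, and 17% of all genes rose and 15.6% fell. By the authors' deposited paired test 35 listed genes rose and 16 fell, and with pairs 1 and 2 only 17 fell. These counts include the 10 defence genes and the list of ATF4 targets. For the 37 other named genes 521 of 549 results kept direction and side, none changed direction, and 9 genes lost their call at least once. Signals near the bottom of the scale, as for Slc40a1 and Gsto2, had no detection call.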

Other observations

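Of 17 genes of selenoprotein synthesis and other selenoproteins, 2 rose, 4 fell and 11 did not pass, a share of calls close to the 32.7% of all genes, with a median of −0.01 log2. The falling count was 2 without replicate 2, 3 or 4, and 1 by the authors' deposited paired test, with pairs 1 and 2 only and with pairs 3 and 4 only. Selenos, a selenoprotein of the endoplasmic reticulum that helps to remove misfolded proteins, rose 1.63-fold (0.70 ± 0.07 log2, SE, limma adjusted p = 0.000126). Eefsec, the elongation factor that delivers selenocysteine to the ribosome, rose 1.30-fold. Selenop, the secreted selenium carrier, was 1.32-fold lower, and Selenoh was 1.17-fold lower. When pairs were ignored, Selenop had an adjusted p of 0.152 and Selenoh one of 0.0619, and no gene of the list fell; Selenoh missed the threshold in 7 of 15 alternative settings.

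Of 14 genes of lipid peroxide defence and ferroptosis, 4 rose, 1 fell and 9 did not pass. The list median was 0.05 log2, and 32.7% of all genes passed. The falling count ran from 0 by the authors' deposited paired test to 3 with pairs 3 and 4 only. Besides Slc7a11, the risers included Dhodh, a mitochondrial enzyme of pyrimidine synthesis that also reduces ubiquinone (1.46-fold), and Coq2, an enzyme of ubiquinone synthesis (1.34-fold). Of the 5 genes of superoxide and hydrogen peroxide removal (Sod1, Sod2, Sod3, Cat and Ccs) 0 passed by limma in either direction, and 3 had an unadjusted p under 0.05. The authors' deposited paired test also called 0. With the dimmer 50% of genes left out, or a robust prior variance that follows intensity, 2 rose. In the setting without the dimmer 50%, without replicate 1, with cyclic loess normalization and with pairs 3 and 4 only, 1 fell. Their differences ran from −0.15 to 0.11 log2.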
